A study of Mus musculus with 12 samples.

Results

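The nerve cells of the bowel wall and the glia that surround them were followed here through 32 marker genes, of 30139 genes or transcripts that the array measured. The members were a fixed list of symbols, matched to probes by the gene name in the scanner output, with older names traced through each probe's transcript accession. All 32 were found, on 39 probes, and 5 of them (Elavl4, Nos1, Ncam1, Ednrb and Gfap) had more than 1 probe. The list holds 29 genes of neurons and of the receptors and factors that neurons depend on, and 3 genes of glia (Sox10, S100b and Gfap), which are given apart. For a gene with several probes, the brightest was used.

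Colorectal tissue came from female C57BL/6N mice aged 14 weeks, on 12 single-colour arrays in 3 groups of 4. Wild-type normal tissue came from mice 102, 104, 105 and 108. Apc normal tissue and Apc polyps came from mice heterozygous for the Δ716 allele of Apc, which truncates this inhibitor of Wnt signalling, and both tissues carried the numbers 103, 106, 107 and 110. The allele is inherited, so that the normal tissue of these mice carried it too. All mice had the same chow; how many polyps entered 1 sample, and which layers of the bowel wall were taken, was not given in these sources.

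The enteric nervous system is a network of ganglia that lies between and beneath the muscle layers of the gut and sends fibres into the mucosa, where it steers contraction, secretion and blood flow. Its cells descend from neural crest progenitors that need the receptor Ret, its co-receptors of the Gfra family and the endothelin receptor Ednrb. Mature neurons are told apart by their transmitters: acetylcholine and tachykinins in excitatory neurons, nitric oxide and vasoactive intestinal peptide in inhibitory ones. Several neuronal genes, among them those of secretory granules, are also used by the enteroendocrine cells of the epithelium, and 7 of the 32 (Uchl1, Snap25, Syt1, Scg2, Scg3, Syp and Tac1) were set down as shared with those cells.

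A level is the log2 signal of a probe after subtraction of its array's 75th percentile, so that 0 stands for that percentile, and is compared only with levels of the same probe. Values of a group are given in the order of the mouse numbers above. Between 64.6% and 73.8% of an array's spots were well above background and none was saturated. The tissue's own markers were present throughout: the summed linear signal of 7 epithelial keratin and surface markers was 570 to 710 in wild-type normal tissue, 584 to 678 in Apc normal tissue and 415 to 480 in polyps. Of the 32 members, 28 were well above background on all 8 normal arrays, and 21 on all 4 polyp arrays. Chrna3, a nicotinic receptor subunit, was on no array well above background, and the dimmer Chat, Calb2 and Gfra1 were so on only some normal arrays. Signal in whole tissue does not show which cells it came from. The number of arrays limits the precision. The labels name separate mice within a group, and in whole tissue fewer cells of a type and less RNA per cell cannot be told apart.

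Polyps were first compared with the normal tissue that carried the same mouse number. Most neuronal genes and all 3 glial genes were lower in polyps. Of the 28 members tested, 20 fell (17 of 25 neuron genes and 3 of 3 glia genes) and 0 rose at a limma adjusted p under 0.05, where 24.7% of all 19661 genes tested fell and 21% rose. At an unadjusted p under 0.05 the count was 22, all of them lower, where 29% of all genes were lower and 24.2% higher. The median log2 difference was −1.35 for the neuron genes and −1.82 for the glia genes, against −0.05 for all genes tested. All 4 polyps lay below all 4 normal samples for 20 of the 28 tested members, against 24.5% of all genes, and 23 of the 28 were lower in polyp in each of the 4 mice, against 33.6%. The remaining 5 were Ret, Nos1 and Npy, which were higher in all 4 mice, as were 28.5% of all genes, and Tac1 and Hand2, which were mixed. Chrna3, Chat, Calb2 and Gfra1 were too dim in both groups to be tested. Among the falls, Vip, Nefl, Nefm, Prph, Cartpt, S100b and Gfap were tested through the normal group alone, which favours a fall. Not every polyp was well above background for them. With signal required on all arrays of both groups, 13 of 21 members fell, beside 4544 of all 17888 genes.

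The size of many falls depended on how background was treated. With normexp, which adds 50 to every signal after its correction and was followed by quantile normalization, 12 of the 20 falls were smaller by over 1.5-fold and 0 of these 12 lost their call. They were −0.57 for Nefm, −0.59 for Gfap, −1.85 for Nefl, −1.86 for S100b, −3.11 for Vip, −2.56 for Prph and −1.56 for Cartpt. The other 5 were −2.87 for Scg2, −2.19 for Stmn2, −1.20 for Uchl1, −1.90 for Scg3 and −1.41 for Gap43. Against wild-type tissue 13 falls shrank as much, and 0 of these lost their call. The folds given for these genes belong to the subtracted signal.

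**Figure D1:**
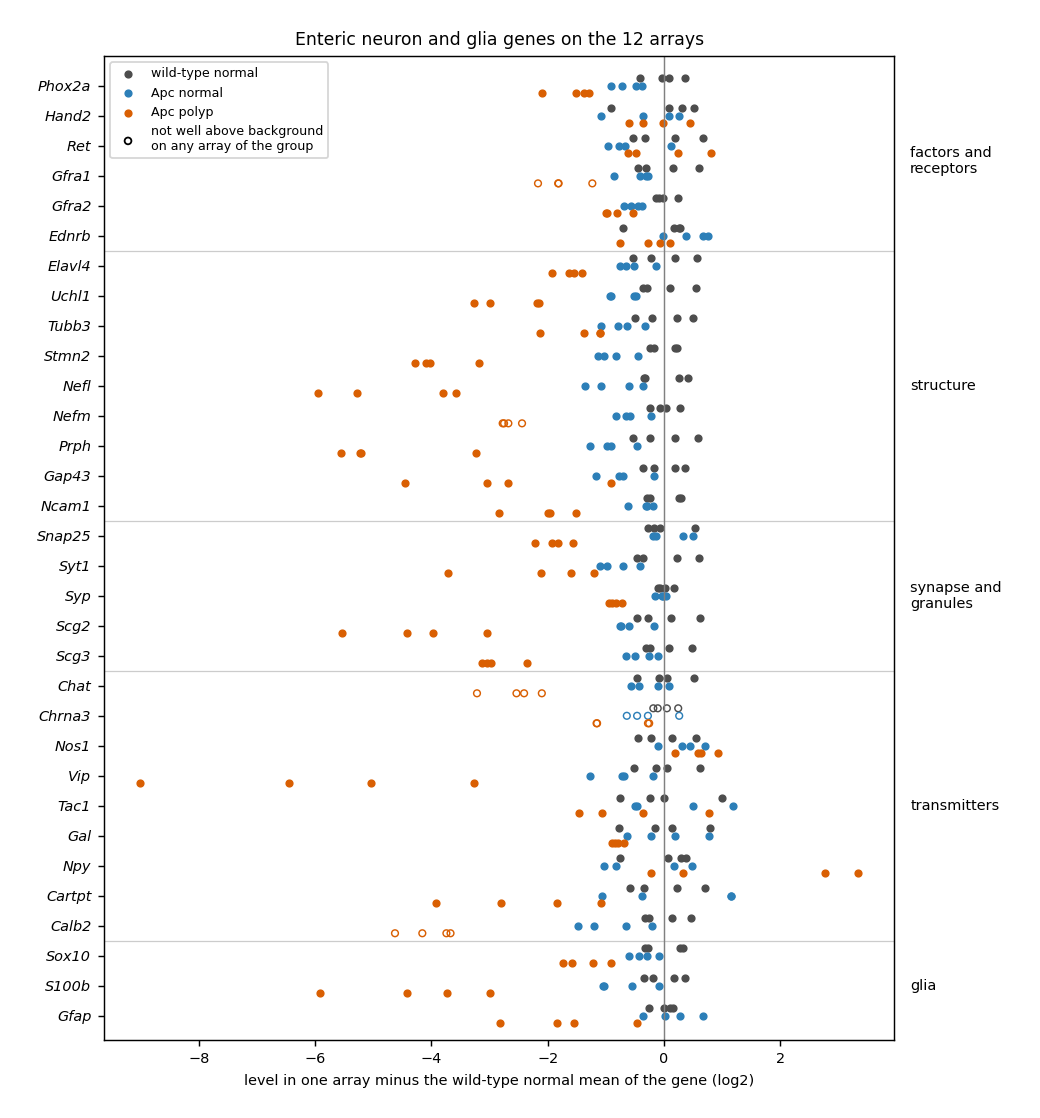
Level of each gene in each array minus that gene's mean in wild-type normal tissue (x axis, log2), with 1 row per gene and 4 points per group; open points mark a group in which no array was well above background. Polyps lie to the left of both normal groups in most rows, while Hand2, Ret, Nos1 and Npy are exceptions; the polyps of mice 106 and 107 carry Npy to the right.

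Among the transcription factors and receptors that build and keep the enteric nervous system, 2 of 5 tested fell, beside 24.7% of all genes. Phox2a, a homeodomain factor of autonomic and enteric neurons, was at −3.46, −3.21, −3.12 and −3.65 in Apc normal tissue and −4.84, −4.26, −4.03 and −4.11 in polyps. Every polyp was below every normal sample, and the difference was −0.95 ± 0.21 (SE, n = 4 and 4, 1.93-fold lower, limma adjusted p = 0.00644). Ednrb, the endothelin receptor of migrating crest cells, was at −1.90, −1.13, −1.22 and −1.51 in normal tissue and −2.63, −1.96, −1.79 and −2.16 in polyps. The groups overlapped by a single pair of samples, the normal of mouse 103 and the polyp of mouse 107, and the fall of −0.70 ± 0.23 had an adjusted p of 0.039. That call did not hold without any 1 of 6 arrays (polyps 103, 106 and 110, normals 106, 107 and 110), where the value ran from −0.76 to −0.53. With the mouse number as a block the call held (adjusted p = 0.00499). A second Ednrb probe gave −0.97 (adjusted p = 0.0179).

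Ret, the receptor tyrosine kinase for the GDNF family, did not follow. It was at −3.77, −3.66, −2.87 and −3.95 in normal tissue and −3.60, −3.46, −2.74 and −2.18 in polyps, with the polyp of mouse 110 highest. Its difference was 0.56 ± 0.36 (95% interval −0.27 to 1.40, adjusted p = 0.236), with 0.17, 0.19, 0.13 and 1.77 in the 4 mice. Hand2, a basic helix-loop-helix factor of enteric neurons that smooth muscle precursors also use, was at −1.995, −0.66, −1.27 and −0.82 in normal tissue and −1.27, −1.52, −0.46 and −0.93 in polyps. Those groups overlapped and the difference was 0.14 ± 0.33 (interval −0.63 to 0.91, adjusted p = 0.756); it took the opposite sign in slide 2 alone and without normal 103 or polyp 107. Gfra2, the co-receptor for neurturin, was at −2.18, −1.87, −2.07 and −1.95 in normal tissue and −2.49, −2.48, −2.30 and −2.03 in polyps. The difference of −0.31 ± 0.14 did not pass the test (adjusted p = 0.0997), but did without polyp 110 (−0.41, 0.038) and with quantile normalization (−0.35, 0.0438).

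Gfra1, the co-receptor for GDNF, was well above background in 2 of 4 normal samples and in none of the polyps. For such a gene only a bound can be given. It sets the mean of the brighter group against the mean, over the dim arrays, of the probe's own signal or the dimmest signal well above background on that array, whichever is higher. By that measure Gfra1 was at least 1.86-fold lower in polyps. The measure refers to the subtracted signal, and its brighter mean takes in all 4 arrays, also those not well above background.

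Of 9 genes of neuronal structure tested, 8 fell, beside 24.7% of all genes. The steepest falls were those of Prph and Nefl, intermediate filaments of the axon. Prph (peripherin, typical of peripheral neurons) was at −1.11, −1.04, −0.59 and −1.40 in normal tissue and −5.68, −5.36, −5.34 and −3.36 in polyps, and in wild-type tissue at −0.66, −0.38, 0.06 and 0.46. No polyp came near a normal sample, although the polyp of mouse 110 stood well above the others. The difference was −3.90 ± 0.49 (14.9-fold lower, adjusted p = 0.000491). Nefl, the light neurofilament chain, went from −2.71, −1.96, −1.71 and −2.45 to −7.31, −6.63, −4.93 and −5.15, with the polyps of mice 107 and 110 alone well above background. This fall was −3.80 ± 0.54 (adjusted p = 0.000883). Nefm, the medium chain, was well above background in every normal sample at −4.80, −4.88, −4.45 and −5.05. It was so in none of the polyps, at −6.97, −6.998, −6.67 and −6.90, and was at least 2.77-fold lower. The limma test does not refer to that bound: it used the dim polyp signals, with a difference of −2.09 (adjusted p = 7e-05). The bound holds for the subtracted signal only, since the difference was −0.57 with normexp.

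The probes that measured the 2 filament genes Prph and Nefm are shown, since these changes rest on hybridization to 60 bases each. The Prph probe lies at chr15:98889042-98889101 (mm9, plus strand) and the Nefm probe at chr14:68738193-68738252 (mm9, minus strand), each with no intron inside it, as its span on the genome equals its length.
Prph: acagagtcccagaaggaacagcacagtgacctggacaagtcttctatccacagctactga
Nefm: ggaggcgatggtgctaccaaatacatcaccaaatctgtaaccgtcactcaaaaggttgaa

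Stmn2, a regulator of microtubules in growing and regenerating axons, was at −0.74, −0.95, −0.38 and −1.07 in normal tissue and −4.02, −4.21, −3.95 and −3.10 in polyps. The gap between the groups was wide in all 4 mice, and the difference was −3.03 ± 0.26 (8.19-fold lower, adjusted p = 0.000118). Uchl1 (PGP9.5, a neuronal ubiquitin hydrolase used to stain nerve fibres) was at −2.01, −2.43, −2.03 and −2.45 and −3.68, −4.51, −4.79 and −3.71, again without overlap. It fell 3.84-fold (−1.94 ± 0.28, adjusted p = 0.000892). Ncam1, the neural cell adhesion molecule, was at −0.52, −0.40, −0.50 and −0.82 and −2.17, −3.05, −1.71 and −2.21, a fall of 3.3-fold (adjusted p = 0.00126). Its 2 dimmer probes gave differences of −2.49 and −2.002, in the same direction.

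Elavl4 (HuD, an RNA-binding protein of neurons) was at −2.44, −2.32, −1.94 and −2.55 in normal tissue and −3.72, −3.35, −3.42 and −3.21 in polyps, lower by 2.16-fold (adjusted p = 0.00119). Its second probe, about 1 kb away in the same transcript, was above background on no polyp array and fell by 3.27, so that the size of the change differed between probes while the direction did not. Tubb3, neuronal beta-tubulin, was at −2.23, −2.07, −1.77 and −2.52 and −3.57, −2.55, −2.54 and −2.81. The groups just failed to overlap and the difference of −0.72 ± 0.26 did not pass the test (adjusted p = 0.0539). With the mouse number as a block it did (0.0351), as it did without normal 110 (−0.85, 0.0446). Gap43, a protein of axon growth cones, was at −1.68, −1.61, −1.09 and −2.08 in normal tissue and spread widely in polyps, at −1.82, −3.59, −5.36 and −3.94. The polyp of mouse 103 lay among the normal samples and that of mouse 107 lay lowest. The fall of −2.07 ± 0.66 had an adjusted p of 0.0332, and 0.053 with the mouse number as a block. Its call did not hold without any 1 of 6 arrays (normals 103, 106 and 107, polyps 106, 107 and 110), where the value was −2.10 to −1.50. Without polyp 103 it was −2.69.

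Proteins of synapses and secretory granules fell in 4 of 5 cases, beside 24.7% of all genes, and all 5 are also made by enteroendocrine cells. Scg2 (secretogranin II, a granule protein cut into secretoneurin) was at −0.00, 0.56, −0.01 and 0.13 in normal tissue and −3.23, −4.80, −3.69 and −2.31 in polyps. The polyp of mouse 106 was lowest, and no polyp overlapped a normal sample. The difference was −3.68 ± 0.47 (12.8-fold lower, adjusted p = 0.000535). Scg3, a granin that sorts cargo into granules, was at −1.36, −1.12, −0.97 and −1.51 and −3.91, −3.98, −3.84 and −3.21, 5.65-fold lower (adjusted p = 9.69e-05). Snap25, a SNARE protein of vesicle fusion, was at 5.34, 5.98, 5.29 and 5.79 and 3.54, 3.25, 3.66 and 3.90, 4.04-fold lower (adjusted p = 0.000212). These 3 genes kept the polyps of all 4 mice clear of the normal samples.

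Syp (synaptophysin, a vesicle membrane protein) was among the tightest of the 32 in its replicates. It was at 1.05, 1.05, 1.12 and 0.93 in normal tissue and 0.25, 0.36, 0.14 and 0.18 in polyps, so that a modest fall of −0.81 ± 0.10 passed the test (adjusted p = 0.000418). Syt1, the calcium sensor of transmitter release, was at −1.81, −1.54, −1.24 and −1.93 in normal tissue and −2.03, −2.43, −4.54 and −2.94 in polyps. The polyp of mouse 107 stood far below the others, as it did for Gap43. Its difference of −1.35 ± 0.50 had an adjusted p of 0.0569; without polyp 107 it was −0.83 (0.0391), and without polyp 103 it was −1.67 (0.0299).

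Of the transmitters, their enzymes and receptors, 3 of 6 tested fell, beside 24.7% of all genes, and 3 more were dim. Vip, the peptide of inhibitory and secretomotor neurons, fell further than any other member. It was at −0.49, 0.02, −0.52 and −1.07 in Apc normal tissue, −0.30, 0.07, 0.25 and 0.82 in wild-type tissue and −6.24, −8.80, −4.83 and −3.05 in polyps. The polyps of mice 107 and 110 were well above background and those of 103 and 106 were not, and the order of the last is therefore not a measurement. The difference was −5.22 ± 1.07 (adjusted p = 0.00494), a fit that includes those dim arrays. It was −4.19 without polyp 106 and −6.11 without polyp 110, and stayed called in both. Cartpt, which encodes the CART peptide of myenteric neurons, was at −3.51, −1.30, −1.30 and −2.83 in normal tissue and −6.37, −5.25, −3.53 and −4.29 in polyps. Both groups were spread over more than 2 log2 units and were clear of each other by a narrow margin; the fall of −2.63 ± 0.72 had an adjusted p of 0.0183, or 0.0514 without polyp 106 (−2.50). Gal (galanin, a modulator of transmitter release) was at −0.11, 0.72, 1.31 and 0.30 in normal tissue and −0.27, −0.32, −0.36 and −0.17 in polyps. Polyps were close to each other and just below the lowest normal sample. The fall of −0.83 ± 0.28 (adjusted p = 0.0386) was lost with the mouse number as a block (0.0565) and without any 1 of 5 arrays (normal 106 or any of the 4 polyps, −0.87 to −0.78).

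The members that mark acetylcholine neurons could be given as bounds only. Chat, the enzyme that makes acetylcholine, was well above background in 3 of 4 Apc normal samples and in no polyp, at least 2.01-fold lower. Calb2 (calretinin, a calcium-binding protein of excitatory and sensory neurons) was likewise at least 2.35-fold lower. Both had been lower in the polyp of every mouse, by 1.67 to 2.65 for Chat and 2.67 to 3.53 for Calb2 in measured log2 signal, though polyp signals were not well above background.

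Npy and Tac1 did not pass the test, nor did the brighter probe of Nos1. Npy (neuropeptide Y, of secretomotor and sympathetic neurons) was at −3.98, −2.68, −4.20 and −2.99 in Apc normal tissue, −3.92, −2.87, −3.09 and −2.79 in wild-type tissue and −3.40, 0.18, −0.40 and −2.84 in polyps. The polyps of mice 106 and 107 were the highest of all 12 arrays, and those of 103 and 110 lay within the normal range. The difference was 1.85 ± 0.83 (interval −0.07 to 3.76, adjusted p = 0.104), and 2.44 (0.0384) without polyp 103. Tac1, the precursor of substance P, was at 1.43, 3.09, 1.41 and 2.40 in normal tissue and 0.44, 1.55, 0.83 and 2.68 in polyps. These overlapped and differed by −0.71 ± 0.56 (interval −1.995 to 0.57, adjusted p = 0.331), lower in 3 of 4 mice.

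For Nos1, the neuronal nitric oxide synthase, the 2 probes disagreed. The brighter one, assigned to an Ensembl transcript at chr5:118404306-118404365 (mm9, plus strand), gave −4.61, −4.05, −4.19 and −3.79 in normal tissue and −4.31, −3.86, −3.92 and −3.57 in polyps, a difference of 0.25 ± 0.21 (adjusted p = 0.379) that was positive in all 4 mice. The other, at chr5:118402831-118402890 (mm9, plus strand) and assigned to the RefSeq transcript, fell by 1.65 (adjusted p = 0.0281), with 2 of 4 polyps well above background. The mean of both gave −0.70 (0.0944). A direction for Nos1 thus depends on the probe, and which of them follows the enzyme's mRNA was not tested.

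Probes of the transmitter genes whose values stand apart are shown: Npy and Cartpt, whose probes span 3763 and 990 bases of genome (mm9, chr6:49773743-49777505, plus strand, and chr13:100668967-100669956, minus strand) and so cross an intron, and the second Nos1 probe.
Npy: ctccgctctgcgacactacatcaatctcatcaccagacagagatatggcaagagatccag
Cartpt: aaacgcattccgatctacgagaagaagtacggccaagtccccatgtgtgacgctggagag
Nos1: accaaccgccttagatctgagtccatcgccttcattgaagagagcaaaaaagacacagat

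**Figure D2:**
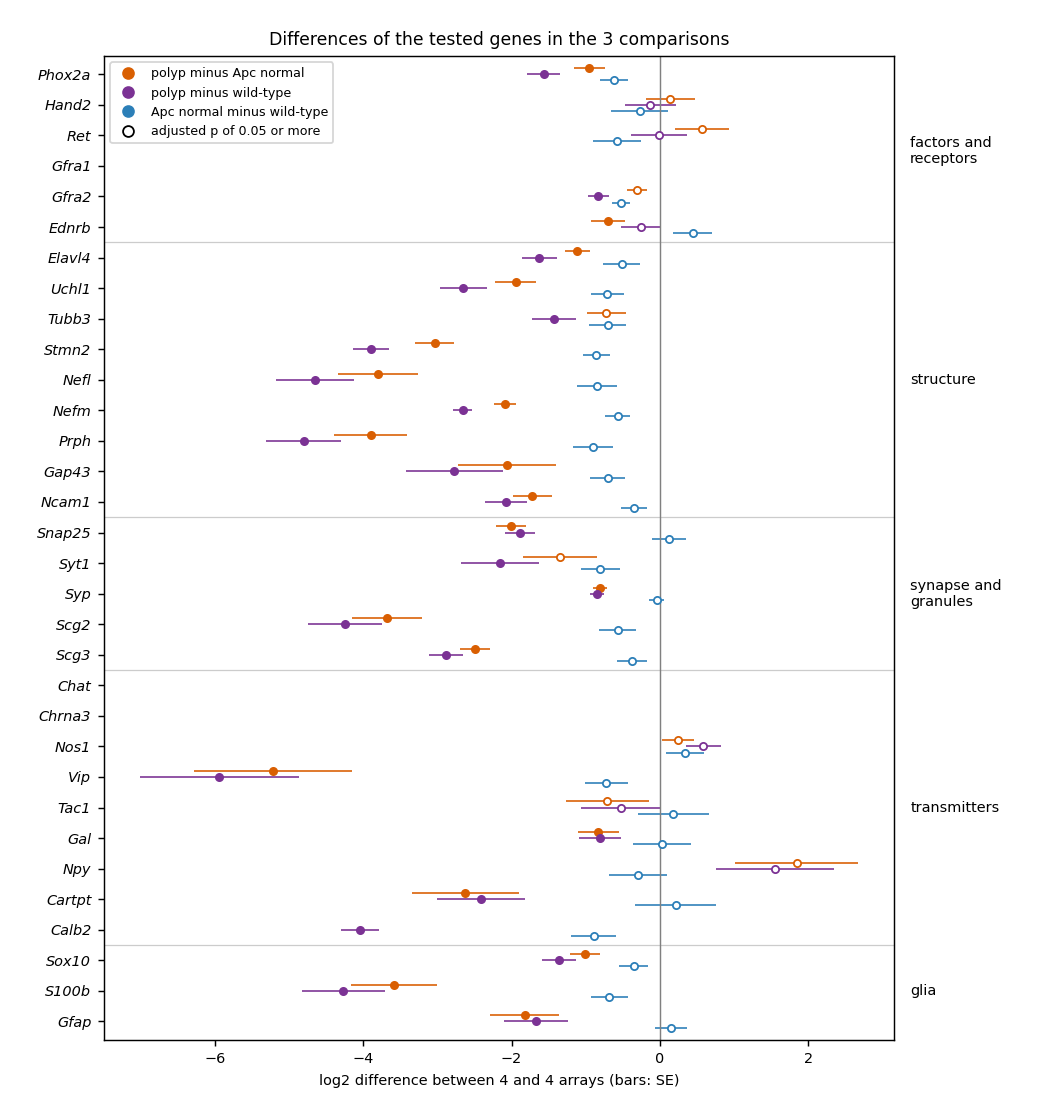
Log2 difference between group means (x axis) with its SE for each tested gene, for polyp against Apc normal, polyp against wild-type and Apc normal against wild-type tissue, each of 4 and 4 arrays; filled points passed an adjusted p of 0.05. The first 2 comparisons share the polyp arrays and run side by side for most genes; Apc normal against wild-type tissue has no filled point, and Npy is the gene farthest to the right.

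All 3 glia genes fell. S100b, a calcium-binding protein of enteric glia, was at −2.71, −2.25, −1.78 and −2.74 in Apc normal tissue, −2.04, −1.87, −1.33 and −1.52 in wild-type tissue and −4.68, −7.61, −6.12 and −5.42 in polyps. No polyp overlapped, and those of mice 106 and 107 were not well above background. The difference was −3.59 ± 0.58 (12-fold lower, adjusted p = 0.00159). Sox10, the transcription factor that glia retain from the neural crest, was at −2.45, −1.93, −2.26 and −2.14 in normal tissue and −3.58, −3.05, −3.42 and −2.75 in polyps. All polyps remained above background and the fall was 2.01-fold (−1.01 ± 0.20, adjusted p = 0.00454). Gfap, the glial intermediate filament, was at −4.75, −3.73, −4.37 and −4.12 and −7.22, −5.94, −6.24 and −4.87, lower by 3.54-fold (adjusted p = 0.0133). Of its polyps 2 of 4 were well above background, and the call was lost without both arrays of mouse 106 (−1.69, 0.0731) or of mouse 107 (−1.81, 0.0586). A second Gfap probe fell by 4.05 with no polyp above background (adjusted p = 7.47e-05), and the remaining one was above background on no array.

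Proximal promoter sequences were at hand for 22 of the 32 genes (26 windows of 250 bases before a start site, from RefSeq, GRCm38.p6). Ret, Snap25, Stmn2, Calb2, Ncam1, Nefl, Nefm, Gap43, Gfra2 and Sox10 had none. The cyclic AMP response element, the site of CREB-type factors, is known from promoters of neuropeptide and granin genes. Its full form TGACGTCA, which reads the same on both strands, occurred before Scg2 and Cartpt, and is found in 1.55% of all 32851 promoter windows. The variant TGACGTCT, searched on both strands, occurred before Vip and is found in 0.451% of windows. Its 5-base core TGACG, searched on both strands and contained in both longer forms, occurred in 12 of the 26 member windows (46.2%, 10 genes) and in 17.8% of all windows. These matches describe the letters and not binding. The 3 windows are given to show the element in place. Whether the element goes with the falls was not tested. The core occurred before Cartpt, Ednrb, Elavl4, Scg2, Scg3 and Vip, which fell, and before Chat, which was not tested. It also occurred before Hand2, Tac1 and Nos1, which were not called (Nos1 by its brighter probe). Uchl1, Phox2a, Prph, Gal, Syp, S100b and Gfap, which fell, have windows without the core. So do Tubb3, Syt1 and Npy, which were not called, and Chrna3 and Gfra1, which were not tested. Capitals mark the element, which starts 68 bases before the Scg2 start site, 112 before that of Cartpt and 79 before that of Vip. They lie at chr1:79440027-79440276 (minus strand), chr13:99900684-99900933 (minus strand) and chr10:5638968-5639217 (plus strand).
Scg2: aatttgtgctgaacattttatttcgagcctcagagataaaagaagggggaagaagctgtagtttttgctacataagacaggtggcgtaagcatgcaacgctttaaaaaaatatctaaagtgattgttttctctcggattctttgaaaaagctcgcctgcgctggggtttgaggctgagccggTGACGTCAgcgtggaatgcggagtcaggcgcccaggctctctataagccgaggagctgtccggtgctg
Cartpt: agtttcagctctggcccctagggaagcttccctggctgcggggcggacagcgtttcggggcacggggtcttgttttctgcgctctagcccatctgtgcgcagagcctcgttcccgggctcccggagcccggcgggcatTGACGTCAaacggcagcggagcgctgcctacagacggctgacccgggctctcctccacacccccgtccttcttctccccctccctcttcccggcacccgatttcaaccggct
Vip: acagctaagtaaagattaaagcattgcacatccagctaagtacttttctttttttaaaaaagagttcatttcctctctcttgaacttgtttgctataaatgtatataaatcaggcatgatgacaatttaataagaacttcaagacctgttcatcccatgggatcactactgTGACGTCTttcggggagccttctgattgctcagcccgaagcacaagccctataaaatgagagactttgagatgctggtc

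The mice differed in how far their polyps fell. Over the 20 members that fell, the median difference between polyp and normal tissue was −1.88 in mouse 103, −2.43 in mouse 106, −2.23 in mouse 107 and −1.58 in mouse 110. Mouse 110 had the smallest fall of the 4 for 13 of the 20 genes and the largest for 0. The largest fell to mouse 107 for 10 genes and to mouse 106 for 8. Mouse 110 also had the smallest fall for 7 of 11 smooth muscle markers and 5 of 9 enteroendocrine markers that fell. The largest was in mouse 106 for 9 of these 11 and 4 of these 9. These are descriptions of 4 animals, and a difference between mice was not tested.

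**Figure D3:**
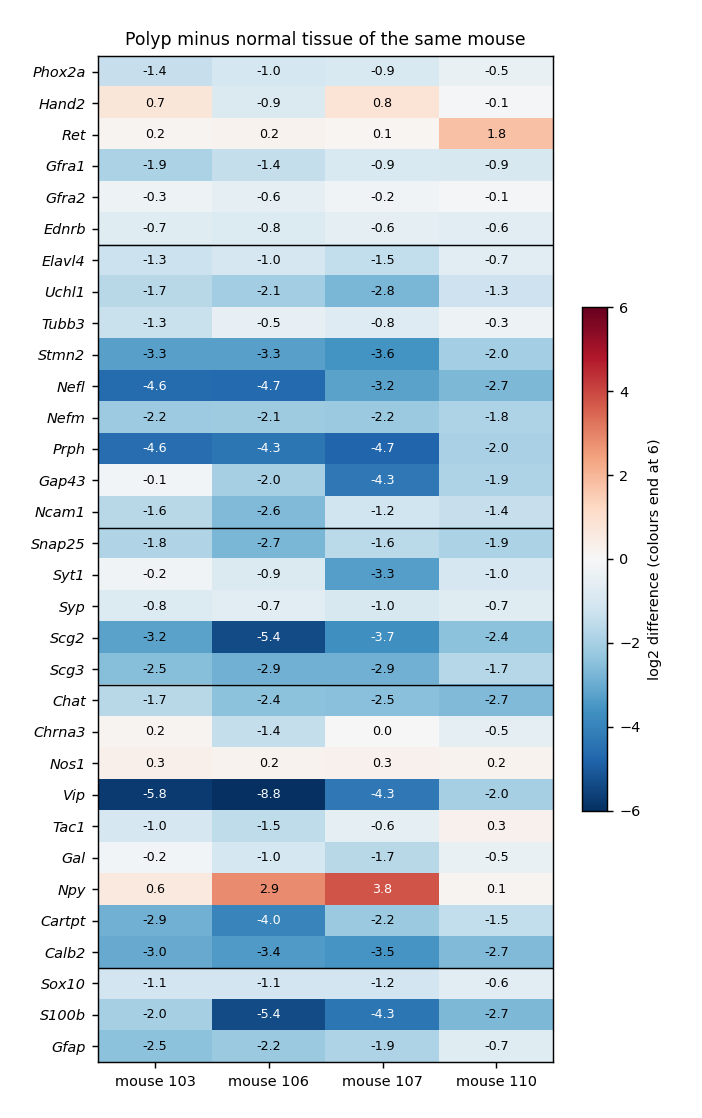
Polyp minus normal tissue of the same mouse for all 32 genes (log2; blue lower and red higher in polyp; numbers in the cells). The deepest blue is Vip in mouse 106, followed by Vip in mouse 103, and the column of mouse 110 has the smallest falls for most genes; Npy is red in mice 106 and 107 and near 0 in mouse 110.

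Markers of other cells of the bowel wall moved in the same comparison. Of 12 smooth muscle markers, all 11 tested fell and their median was −3.53. Myocd, which switches on the smooth muscle programme, fell 6.72-fold and Smtn, a cytoskeletal protein, 5.42-fold. The list's summed linear signal was 456 to 635 in wild-type normal tissue, 313 to 428 in Apc normal tissue and 30.4 to 59.7 in polyps, and Lmod1, a thin filament protein of smooth muscle, was above background in no polyp. That of the 29 neuron genes was 49.9 to 90.9, 52.7 to 83.9 and 17.3 to 26.4, most of it from Snap25 in normal tissue; the other 28 summed to 13.2 to 26.6, 12.2 to 20.8 and 5.69 to 11.4. For the 3 glia genes it was 0.515 to 0.788, 0.373 to 0.549 and 0.121 to 0.206. Among interstitial cells of Cajal, the pacemakers that lie with the myenteric ganglia, 3 of 4 tested markers fell, among them the transcription factor Etv1 (−2.32 ± 0.24) and Thbs4 (−2.58 ± 0.38). The part of muscle and of interstitial cells in the neuronal result was not tested.

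Of 14 enteroendocrine markers 9 of 13 tested fell and 1 rose (Isl1, a LIM homeodomain factor), with a summed signal of 81.7 to 102 in wild-type, 70.9 to 113 in Apc normal and 11.0 to 20.1 in polyp samples. Chga and Chgb, the main chromogranins, fell 10.3-fold and 8.68-fold, and Neurod1 and Rfx6, factors that define the lineage, were above background in no polyp. Isl1, Neurod1, Rfx6 and Lmod1 were named after their values were seen. The 7 members shared with these cells had 5 falls. The 22 neuron members not shared had 12 falls of 18 tested, 66.7% beside 24.7% of all genes, with a median of −1.03. Fat, fibroblast, endothelial, mesothelial and white blood cell markers were divided or mostly not called: 1 of 4 tested fat markers fell; 2 of 8 fibroblast markers fell and 2 rose; 1 of 8 endothelial markers fell and 1 rose; 1 of 2 mesothelial and 1 of 6 leukocyte markers rose. Epithelial markers fell in 4 of 7. The part of enteroendocrine cells in the result was not tested either.

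**Figure D4:**
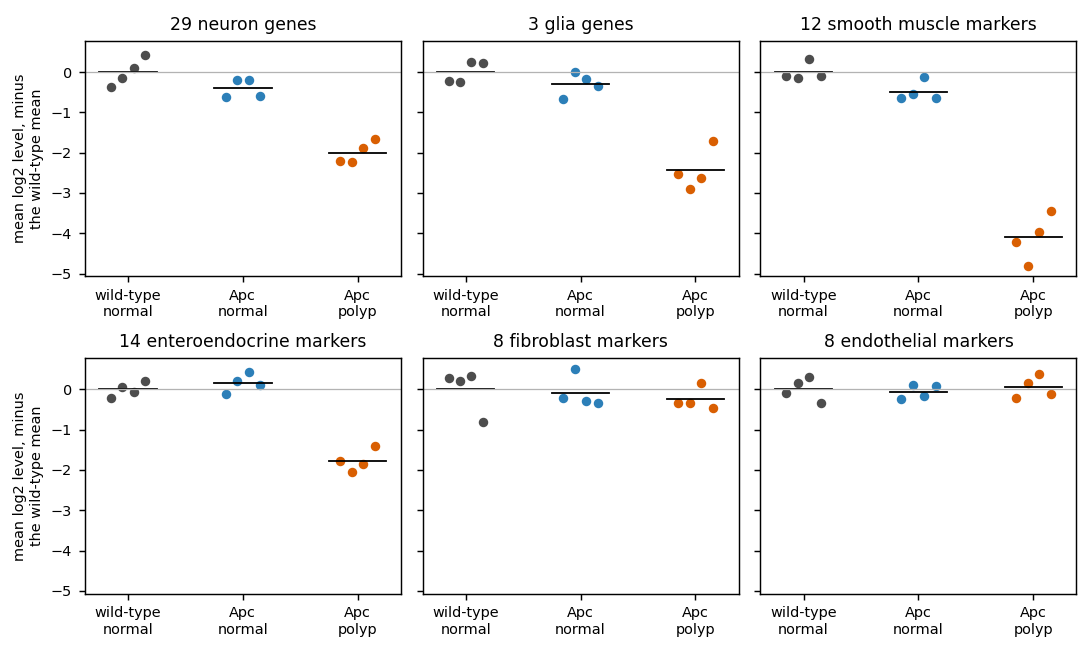
Mean log2 level of the genes of a list in each array minus the wild-type mean of that list (y axis), for the neuron and glia genes and 4 lists of other cells; each point is an array and each line the mean of 4. Polyps lie below both normal groups for neuron, glia, smooth muscle and enteroendocrine genes, and within their range for fibroblast and endothelial markers except for 1 endothelial point.

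Other genes of the same pathways were read from lists that do not hold the members. Of 36 further neuronal genes 28 were tested: 16 fell and 3 rose, with a median of −1.13. The choline transporter Slc5a7, which supplies acetylcholine synthesis, was above background in all 4 normal samples and no polyp, at least 5.49-fold lower. The limma fit, which used the dim polyp signals, gave −3.74 (adjusted p = 0.000105). Tubb2b, a beta-tubulin of developing neurons, rose 13.1-fold (3.71 ± 0.13, adjusted p = 8.06e-06). Slc18a3, which loads acetylcholine into vesicles, had signal well above background in each normal sample and polyp but did not pass (−1.09 ± 0.53, adjusted p = 0.13). Tlx2, a homeobox factor of enteric neurons, rose (1.58), and Dbh, which makes noradrenaline, fell by 4.46. Slc18a3, Tlx2 and Dbh were chosen after their values were seen.

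Of 11 further glial genes 6 were tested, of which 3 fell and 1 rose. Entpd2, an ATP-splitting surface enzyme, fell 4.22-fold. The one that rose was Gpm6b (1.11), a membrane glycoprotein that was singled out after its value was seen. Among 16 ligands, receptors and factors of GDNF, endothelin and neurotrophin signalling, 14 were tested, 4 fell and 0 rose (28.6% lower, beside 24.7% of all genes). At an unadjusted p under 0.05 there was 1 more, Bdnf, a neurotrophin singled out after its value was seen, which was higher in polyps (1.39 ± 0.54, adjusted p = 0.0658). The falls include Gfra3, the co-receptor for artemin (−2.54 ± 0.18, adjusted p = 6.73e-05), and Ntf3, the neurotrophin that acts on Ntrk3 (−4.24 ± 0.44, adjusted p = 0.000236). Gdnf, the ligand of Ret and Gfra1, and Ntrk3 were the remaining falls, by 1.81 and 1.31.

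The second comparison set normal tissue of Apc mutant mice against that of wild-type mice, and asks whether the germline mutation alone goes with a change. Neither a rise nor a fall passed the test for any of the 29 members tested, where 0.0363% of all 19291 genes fell and 0.202% rose. At an unadjusted p under 0.05 there were 13, all lower, beside 9.34% of all genes that were lower and 8.03% that were higher. The median difference was −0.54 for the 26 neuron genes and −0.35 for the 3 glia genes, against −0.02 for all genes. On simulated data this fit found 10% of true changes of 0.5 log2 units and 52% of changes of 1. Of the 29 values 22 lay below 0, beside 10383 of all 19291 genes. All 4 mutant samples were below all 4 wild-type samples for Uchl1, Stmn2, Nefl and Gfra2, which is 4 of 29 beside 5.71% of all genes. Stmn2 was at −0.10, −0.18, 0.27 and 0.30 in wild-type tissue against the Apc normal values above, a difference of −0.86 ± 0.19 (adjusted p = 0.0954). Gfra2 was at −1.59, −1.64, −1.25 and −1.51 in wild-type tissue and differed by −0.52 ± 0.12 (adjusted p = 0.109). The structural genes lay below 0 in 9 of 9 cases, from −0.90 to −0.35.

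All wild-type arrays were on slide 1 and all Apc arrays on slides 2 and 3, so genotype and slide cannot be told apart here. With slide as a random block, Nefm (adjusted p = 0.0434) and Gfra2 (0.0401) passed as lower, in a fit that called 1.81% of all genes lower and 2.23% higher and estimated a correlation within slides of −0.08. Smooth muscle markers were below 0 in 12 of 12 cases with a median of −0.46 and mesothelial markers in 5 of 5 with a median of −1.62, also without a call. Enteroendocrine markers had a median of 0.03. Their part in the neuronal values was not tested.

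Polyps were also set against wild-type normal tissue, with the slides again split by genotype. Of 29 members tested, 23 fell (20 neuron, 3 glia) and 0 rose, where 33% of all 19974 genes fell and 27.6% rose; at an unadjusted p under 0.05, 23 were lower and 1 higher, beside 35.1% and 29.8% of all genes. These 23 are the polyp values above read against other controls, not a second set of polyps. All 9 structural and all 5 synapse and granule genes fell. Tubb3 (−1.43 ± 0.29, adjusted p = 0.00321), Syt1 (−2.16 ± 0.53, 0.00775) and Gfra2 (−0.83 ± 0.14, 0.00101), which did not pass against Apc normal tissue, did here. Ednrb, which had passed there, did not: it was at −1.71, −1.63, −1.60 and −2.59 in wild-type tissue, and the difference was −0.25 ± 0.27 (adjusted p = 0.439).

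The bounds against wild-type tissue were at least 4.36-fold lower for Calb2, 4.12-fold for Nefm, 2.56-fold for Gfra1 and 2.39-fold for Chat, the last 2 untested. The limma fits, which used the dim polyp signals, gave −4.05 for Calb2 (adjusted p = 1.05e-05) and −2.66 for Nefm (4.46e-06). The bounds for Calb2 and Nefm hold for the subtracted signal only. With normexp the differences were smaller, at −1.26 for Calb2 and −0.87 for Nefm. Vip was again the member farthest below (−5.94 ± 1.07, adjusted p = 0.00165; −4.92 without polyp 106, −6.83 without polyp 110), and Gap43 was at −2.77 ± 0.65 (−3.39 without polyp 103). Ret (−0.01 ± 0.38), Hand2 (−0.13 ± 0.34) and Tac1 (−0.53 ± 0.53) did not pass, and neither did Npy (1.55 ± 0.80, adjusted p = 0.126; 2.14 and 0.0341 without polyp 103). Nos1, by its brighter probe, was at −4.94, −4.73, −4.36 and −3.96 in wild-type tissue, below the polyps of mice 106, 107 and 110, with a difference of 0.59 ± 0.24 (adjusted p = 0.0624; 0.0166 without wild-type 108, 0.0363 without polyp 103), while its second probe gave −1.94 (0.0171). The fall of Gal (−0.81 ± 0.29, 0.0398) did not hold without any 1 of 7 arrays (all but wild-type 102), from −0.86 to −0.54.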

How the data were processed

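Each of the 12 arrays was an Agilent single-colour 4x44K array read with Agilent Feature Extraction 10.7.3.1, per the submitters' processing notes. The deposited scanner files hold the authors' processed signal, a background-subtracted intensity per spot, and probe positions on mm9. The authors' deposited value table holds a ratio per probe; over 99% of its values lay within 1% of the processed signal after scaling. It served as an alternative.

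Outlier spots (1403 over all arrays) and controls were left out, spots of a probe averaged, and log2 signals taken relative to each array's 75th percentile. Of 39429 probes, 27508 were named by accession, 3544 by symbol, 404 by older symbol and 7973 kept the name in the file. The brightest probe stood for a gene. A gene entered a test if all 4 arrays of either group were well above background, with limma 3.58.1 in R 4.3.3 (lmFit, eBayes, 8 arrays a fit) and Benjamini-Hochberg adjustment over all genes tested; the threshold was 0.05. In comparisons with wild-type tissue, p-values measure the spread between mice. Polyps and Apc normal tissue came from the same mice, and the main fit treated their arrays as independent. The members and lists were chosen with earlier results of these data known. Genes named were all members and, from each other list, the 2 of smallest p for polyps against Apc normal tissue; any others are marked; markers of other cells are given mostly as counts. Some genes of the other lists are counted but not reported here by name.

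The mouse numbers that pair normal and polyp arrays were read from the titles. Deviations from the group means correlated across genes within a number (r = 0.468, 0.178, 0.141 and 0.288). Between different numbers r ran from −0.344 to 0.198. Each normal array was nearest to the polyp of its own number, except that normal 106 was nearer to polyp 110 (0.198). Slide 1 held wild-type mice, slide 2 mice 103 and 106, slide 3 mice 107 and 110, each in 1 scan. The fits were tested on simulated data. Alternatives were other scalings (median, quantile, normexp with an offset of 50), the value table, other filters on dim probes, 1 fit of all 12 arrays, a robust fit with a variance trend, the mean over probes, slide or mouse as a block, each slide alone and each array left out. Added after seeing the data were the second brightest probe and leaving out both arrays of a mouse.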

Additional observations from a re-analysis of the deposited data

Results flagged for a closer look

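In 96 groups of 4 arrays (32 genes in 3 groups), the highest or lowest array stood far from the others in 2, by Dixon's 95% criterion; chance alone gives about 1 in 20 groups. Prph in polyps was highest in mouse 110, at −3.36 against −5.34 for the nearest polyp, with a gap of 0.852 of the group's range. Ednrb in wild-type normal tissue was lowest in mouse 108, at −2.59 against −1.71 for the nearest, with a gap of 0.896 of the range.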

How the results depend on the processing

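For polyps against Apc normal tissue, the 20 falls became 13 of 21 tested with a filter for signal on all arrays of both groups. That filter took Vip, Nefl, Nefm, Prph, Cartpt, S100b and Gfap out of the test. Falls numbered 11 within slide 2, beside 1932 of all 19661 genes, and 6 within slide 3, beside 996. Neuron genes not shared with enteroendocrine cells, a subset in the same fit, had 12 falls of 18 tested. Falls over all members numbered 16 to 20 with 1 array left out, and 15 to 20 with both arrays of a mouse left out. Over all 19661 genes they numbered 3792 to 4582 and 3571 to 4079. Rises numbered 0 to 1 with 1 array left out. With the mouse number as a replicate block the falls numbered 19 and the rises 0, where 5003 of all 19661 genes fell and 4209 rose. Beside Gal, Gap43 and Tubb3 this block changed no other call. For Apc normal against wild-type tissue, falls numbered 2 with slide as a random block, beside 349 of all 19266 genes. For polyps against wild-type tissue, falls numbered 15 of 21 tested with the stricter filter, beside 5985 of all 17968 genes. The subset of unshared neuron genes had 14 falls of 19 tested. Rises numbered 1 with the median, with quantile normalization, with the value table and with slide as a random block (Nos1), and 0 to 2 with 1 array left out. The second brightest probe gave 21 falls against Apc normal and 24 against wild-type tissue, beside 4358 of all 18219 and 6076 of all 18592 genes.

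Values that took the other sign were, for polyps against Apc normal tissue, Nos1 (−0.70 with the mean of probes, −1.65 with the second probe) and Hand2 (−0.129 to 0.316 with 1 array left out, below 0 without normal 103 or polyp 107; −0.0674 in slide 2; −0.0521 and −0.0804 without mouse 103 or 107). For Apc normal against wild-type tissue they were Nos1 (−0.28, second probe), and, with 1 array left out, Tac1 (−0.156 to 0.511), Gal (−0.231 to 0.288; −0.0201 with the median, −0.0212 with the value table), Syp (−0.0783 to 0.0156), Cartpt (−0.101 to 0.636) and Gfap (−0.0188 to 0.322). For polyps against wild-type tissue they were Nos1 (−0.68 with the mean, −1.94 with the second probe) and, with 1 array left out, Ret (−0.284 to 0.213) and Hand2 (−0.436 to 0.0392). Of these only the second Nos1 probe against Apc normal and wild-type tissue passed the test. The cause was not tested, except that fewer arrays or genes enter some fits. Polyp signals near background limit the size of the falls of Vip, Nefl, Nefm, Prph, Cartpt, S100b and Gfap.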
